A study of Mus musculus with 37 samples.

Results

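The genes described here are those of the mouse major histocompatibility complex (MHC, called H2 in the mouse) and of the machinery that supplies its peptides. They were taken as every row of the count table whose symbol begins with H2-, together with B2m, Tap1, Tap2, Tapbp, Psmb8, Psmb9, Psmb10, Nlrc5, Ciita and Cd74. This gave 53 of the 24421 symbols in the table, 43 of them H2 symbols and 10 others. Of the 53, 49 were found in GENCODE vM21, and 44 of these lie on chromosome 17 of the GRCm38 genome. The 3 symbols H2-Q8, H2-Q9 and H2-T9 carried the values of the near-identical copies H2-Q6, H2-Q7 and H2-T22. H2-Q9 equalled H2-Q7 in all 37 libraries, H2-Q8 differed from H2-Q6 by at most 1 count and H2-T9 from H2-T22 by at most 10 counts. Each such pair was counted once, which left 50 genes.

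Messenger RNA was sequenced from upper urinary tract and bladder of wild-type female BALB/c mice, in 37 libraries. Mice received the nitrosamine carcinogen N-butyl-N-(4-hydroxybutyl) nitrosamine (BBN), for 18 weeks by the series' design text and over a range of weeks by the study's methods, or tap water without it. In BBN-treated mice, UT is the ureter that carried cancer (10 libraries of 9 mice), and UN the one without cancer (7 libraries of 7 mice). U is the ureter of untreated mice (6 libraries from both ureters of 3 mice). BB is the bladder of BBN-treated mice (9 libraries) and B the bladder of untreated mice (3 libraries of the same 3 mice as U). The libraries UT 9 and BB 6 stayed out of the main tests and entered alternatives only. The samples were pieces of whole tissue and the mice all came from 1 inbred strain.

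Totals ranged from 3557697 to 18793560 counts per library. There were 4 libraries with fewer than 9000000 counts, UN 6, BB 1, BB 3 and BB 4, and results that rest on them are given with and without them. Levels are given as CPM, counts divided by the library total after TMM scaling over all 37 libraries and set to a common total. Urothelium markers (8 genes, uroplakins and keratins among them) summed to between 1265 and 2388 CPM in U, and to between 1551 and 5511 CPM in UT. In UN 2 they summed to 19.5 CPM against 898 to 4058 CPM in the other 6 UN libraries, so the markers of the labelled tissue were nearly absent there. Kidney tubule markers summed to 1633 CPM in UT 4 and to at most 9.98 CPM in the other UT libraries.

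Class I molecules display peptides made inside the cell to CD8 T cells, and consist of a heavy chain (H2-K, H2-D and H2-L in the mouse, with the less variable Q, T and M genes) and beta-2-microglobulin, the product of B2m. Their peptides are cut by the immunoproteasome (Psmb8, Psmb9 and Psmb10), carried into the endoplasmic reticulum by Tap1 and Tap2 and loaded with the help of tapasin (Tapbp), and Nlrc5 is the transactivator of these genes. Class II molecules display peptides from ingested material to CD4 T cells, chiefly on dendritic cells, macrophages and B cells, and consist of the A and E chains, held by the invariant chain Cd74, loaded through H2-DM, restrained by H2-O and switched on by Ciita. The BALB/c strain carries the d haplotype of H2, while the reference genome is that of the b haplotype, in which H2-E alpha is a nonfunctional gene (listed as H2-Ea-ps) and H2-L is lacking.

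Upstream sequence is shown for 4 class I pathway genes and 2 class II genes, since H2-K1, H2-D1 and B2m were called between the untreated tissues, Tap1 was called in UT, and the class II genes H2-Aa and H2-Eb1 passed in neither. The sequences are the 250 bases before the RefSeq start on GRCm38.p6, which is the b haplotype and not that of these mice, each written 5′ to 3′ on the strand of its gene. Capitals mark matches, on either strand, to the letters TTCNNNGAA (gamma-activated site), CCAAT (bound by NF-Y), TGACG (a part of the X2 box) and GGGATTCC (NF-kB site), or to the interferon-stimulated response element.
H2-K1 (chr17:34000348-34000597, minus strand): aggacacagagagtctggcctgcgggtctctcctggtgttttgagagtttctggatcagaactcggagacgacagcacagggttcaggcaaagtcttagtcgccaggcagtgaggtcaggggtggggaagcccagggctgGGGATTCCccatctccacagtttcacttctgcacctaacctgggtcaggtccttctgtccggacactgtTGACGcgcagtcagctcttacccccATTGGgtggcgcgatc
H2-D1 (chr17:35262844-35263093, plus strand): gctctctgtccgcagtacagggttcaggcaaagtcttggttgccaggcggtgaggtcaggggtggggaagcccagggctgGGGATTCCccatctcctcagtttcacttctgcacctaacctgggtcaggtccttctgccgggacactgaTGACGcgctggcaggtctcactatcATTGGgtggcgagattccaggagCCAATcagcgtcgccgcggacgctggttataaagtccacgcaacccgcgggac
B2m (chr2:122147437-122147686, plus strand): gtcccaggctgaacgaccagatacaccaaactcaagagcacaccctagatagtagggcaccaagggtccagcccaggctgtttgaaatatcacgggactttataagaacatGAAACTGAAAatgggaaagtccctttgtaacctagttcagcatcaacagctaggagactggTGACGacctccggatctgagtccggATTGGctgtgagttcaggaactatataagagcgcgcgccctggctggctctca
Tap1 (chr17:34187306-34187555, plus strand): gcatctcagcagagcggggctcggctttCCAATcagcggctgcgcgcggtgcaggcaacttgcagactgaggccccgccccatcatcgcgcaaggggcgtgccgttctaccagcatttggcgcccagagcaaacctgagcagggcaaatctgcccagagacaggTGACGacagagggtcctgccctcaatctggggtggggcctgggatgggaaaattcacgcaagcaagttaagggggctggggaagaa
H2-Aa (chr17:34287824-34288073, minus strand): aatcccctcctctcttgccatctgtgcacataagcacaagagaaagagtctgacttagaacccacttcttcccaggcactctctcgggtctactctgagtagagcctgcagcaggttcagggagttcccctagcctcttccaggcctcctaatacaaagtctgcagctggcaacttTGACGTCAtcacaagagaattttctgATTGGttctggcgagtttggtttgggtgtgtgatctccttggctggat
H2-Eb1 (chr17:34305617-34305866, plus strand): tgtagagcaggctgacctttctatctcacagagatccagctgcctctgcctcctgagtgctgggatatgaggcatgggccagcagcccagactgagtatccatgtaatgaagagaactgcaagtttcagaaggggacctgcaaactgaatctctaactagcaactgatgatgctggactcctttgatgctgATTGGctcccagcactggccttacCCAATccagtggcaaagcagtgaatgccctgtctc

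Such windows were present for 37 of the 53 symbols, among 27025 in all. CCAAT letters were in 31 of the 37 windows, against 34.5% of all windows. TGACG letters were in 15, against 17.9% of all, and GGGATTCC letters were in H2-K1, H2-D1, H2-Q6 and H2-Q7, against 0.873% of all. The interferon response letters were in B2m, H2-T22 and H2-T23, against 3.04% of all windows, and the gamma-activated letters were in 4 of the 37, against 7.18%. Each element was searched in a fixed form only, so other forms of it are neither marked nor counted. Many of these genes are copies of each other, so their windows are not independent, and a match is a description of letters only. Tap1 and Psmb9 lie head to head, overlapping by 212 bases (chr17:34187553-34187764), and the library kit is not stated to keep strand, so reads within that stretch cannot be assigned to one of the 2 genes.

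In untreated mice, most class I heavy chain genes tested, B2m and part of the peptide supply genes were higher in the ureter than in the bladder, while Tap1, Nlrc5 and the T genes did not pass. Of 37 genes tested, 16 passed as higher in U than in B and 0 as lower, in edgeR, where a call needed a false discovery rate (FDR) below 0.1 together with a change of 2-fold or more. Over all 15318 genes tested the same rule called 15.7% higher and 14.3% lower. The 16 were 11 of the 18 class I heavy chain genes tested, B2m, Psmb8, Psmb9, Tap2 and H2-Ke6. Whether related heavy chain genes share reads was not tested, so the 11 may not be separate changes. None of the 10 class II genes tested passed in either direction with edgeR or with DESeq2 (3 had an unadjusted p under 0.05 in edgeR and 4 in DESeq2). The median log2 fold change was 1.16 for the heavy chain genes, 0.44 for the class II genes and -0.02 over all genes.

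H2-D1, the heavy chain with the most counts, was at 1745 to 2489 CPM in the 6 untreated ureters (median 1947) and at 803, 889 and 989 CPM in the 3 untreated bladders. B2m was at 1517 to 2703 CPM in the ureters (median 1591) and at 450, 585 and 680 CPM in the bladders. Psmb8 was at 149 to 374 CPM in the ureters (median 185) and at 56.1, 68.8 and 127 CPM in the bladders. The ureter and bladder libraries did not overlap for any of the 3. The log2 fold changes were 1.26 ± 0.17 for H2-D1 (SE, FDR = 4.66e-05), 1.74 ± 0.23 for B2m (FDR = 4.09e-05) and 1.43 ± 0.33 for Psmb8 (FDR = 0.00298) in edgeR.

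Apart from H2-M9, the other heavy chain genes called higher had log2 fold changes between 1.07 and 1.35. H2-K1 was higher by 1.201 ± 0.184 on the log2 scale, H2-L by 1.31 ± 0.15 and H2-K2, a transcribed pseudogene, by 1.29 ± 0.13. H2-L is lacking in the reference haplotype, and whether its counts are separate from those of H2-D1 was not tested. The Q genes H2-Q1, H2-Q2, H2-Q5, H2-Q6, H2-Q7 and H2-Q10 made up the rest of that range. H2-Q4 missed the fold limit with edgeR at 0.98 (FDR = 0.000743) and passed it at 1.01 with DESeq2. The T genes, which include H2-T23 (Qa-1, a ligand of inhibitory receptors on natural killer cells), did not pass, with 0.39 ± 0.21 for H2-T23. H2-M9 was listed at 0 counts in all 3 bladders and at 0.481 to 1.55 CPM in the ureters, at least 5.56-fold higher when the bladders are set to 3 counts per library.

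Genes of peptide supply were split. Psmb9 was higher in the ureter by 1.31 ± 0.37 on the log2 scale and Tap2 by 1.04 ± 0.15, while Psmb10 was at 0.87 ± 0.24 and Tapbp at 0.55 ± 0.12, both past the FDR limit and below the fold limit. Tap1 was at 28.4 to 56.1 CPM in the ureters and at 36.3, 31.4 and 72.0 CPM in the bladders, with overlapping ranges and a log2 fold change of -0.06 ± 0.27 (FDR = 0.871). The class I transactivator Nlrc5 also overlapped, with 12.8 to 36.7 CPM in the ureters and 11.3, 13.1 and 40.0 CPM in the bladders. Of 11 further genes of class I loading, 2 were higher in the ureter and 0 lower, a share near the 15.7% of all genes, Erap1 (1.23 ± 0.17), which trims peptides, and Psme2 (1.14 ± 0.22), a proteasome activator subunit.

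No class II chain reached the fold limit, although H2-Aa, H2-Eb1 and H2-Ea-ps passed the FDR limit. H2-Aa was at 70.9 to 178 CPM in the ureters (median 102) and at 56.4, 67.1 and 83.4 CPM in the bladders, and its log2 fold change was 0.74 ± 0.26 (FDR = 0.0296). H2-Ab1 was at 0.53 ± 0.26 and Cd74 at 0.37 ± 0.21. The ranges of these genes overlapped between the 2 tissues, unlike those of H2-D1 and B2m.

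The 2 tissues also differed in cell types. All 8 urothelium markers tested were lower in U than in B, and 3 of the 4 smooth muscle markers were lower. All 4 adipocyte markers were higher, summing to 8274 to 12740 CPM in the ureters and 12.4 to 278 CPM in the bladders. Of the 4 leukocyte markers 0 passed in edgeR and 0 in DESeq2 (2 and 3 had an unadjusted p under 0.05), with a summed level of 105 to 182 CPM in the ureters and 83.9 to 134 CPM in the bladders. The macrophage markers (8 genes) did not overlap, at 344 to 518 CPM and 325 to 342 CPM, and 0 of the 8 passed in either tool (3 had an unadjusted p under 0.05 in edgeR and 5 in DESeq2). The dendritic cell markers (8 genes) did not overlap either, at 41.3 to 52.7 CPM and 35.7 to 40.01 CPM, with Zbtb46 called higher and Itgax lower, and of 5 T cell markers Cd3d and Cd8a were higher. The part of these differences in the class I result was not tested. In bulk tissue, fewer cells of a type and less RNA per cell cannot be told apart. With the mouse as a replicate block, 15 genes were called higher, H2-Q10 being lost (log2 fold change 0.99).

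**Figure D1:**
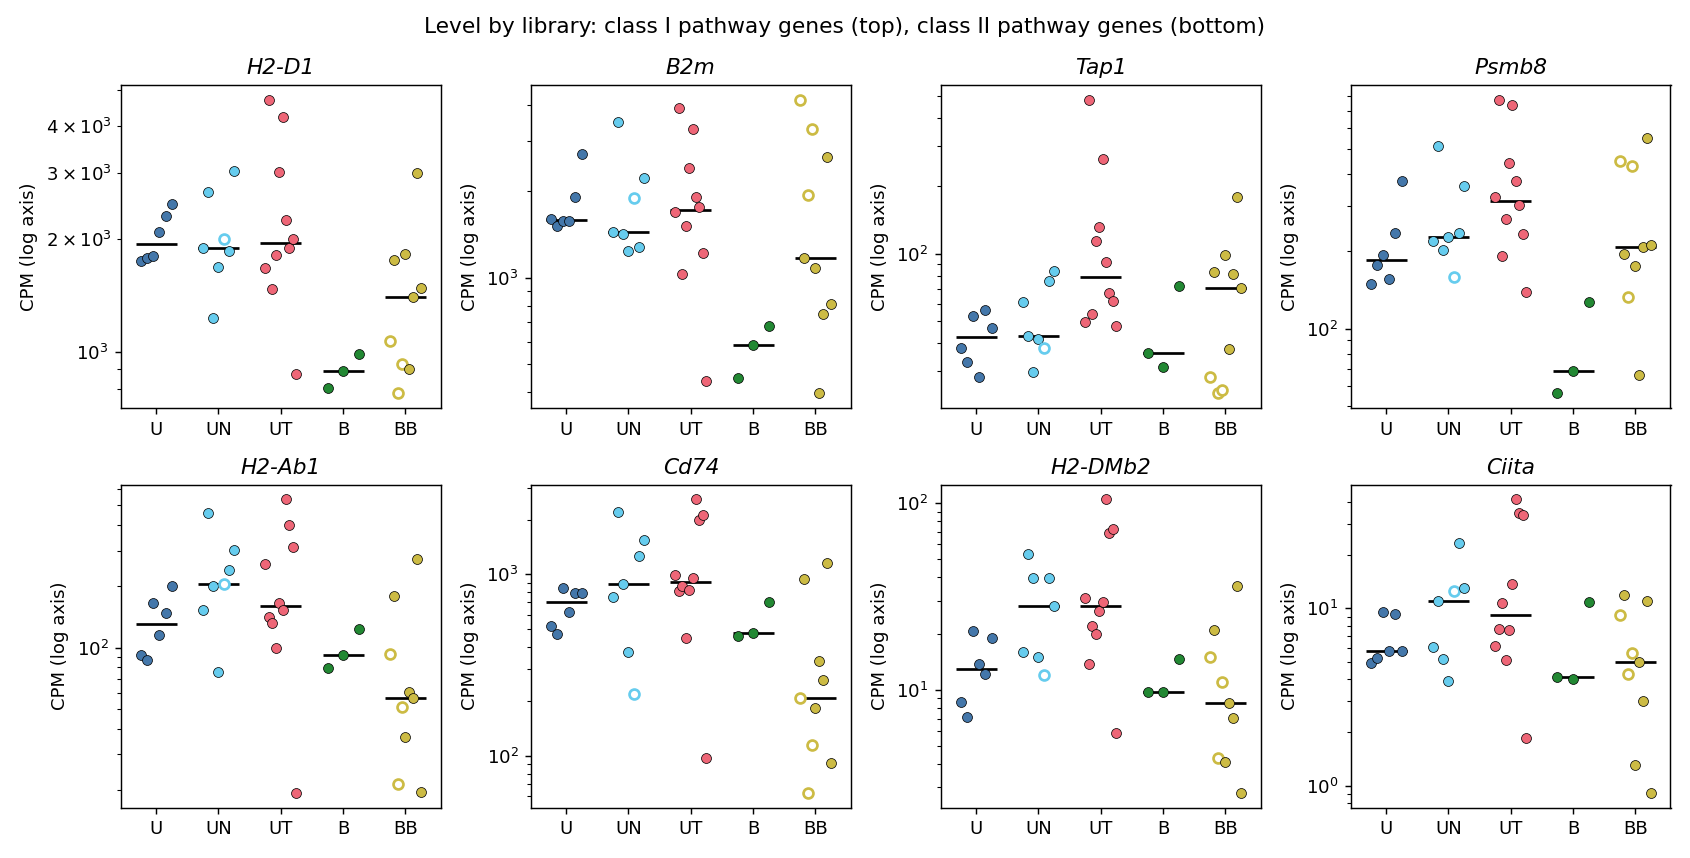
Level of 4 class I pathway genes (top) and 4 class II pathway genes (bottom) in CPM on a log axis, by group; each point is 1 library, bars are medians and open points are the 4 libraries under 9000000 counts. The untreated bladders (B) lie below the untreated ureters (U) for H2-D1, B2m and Psmb8, and not for Tap1 or Ciita.

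In BBN-treated upper urinary tract without cancer, no classical class I gene passed the test against untreated ureter. Of 39 genes tested in UN against U, 4 were higher and 0 lower in edgeR, against 11.9% higher and 1.65% lower over all 15615 genes. The 4 were H2-Oa, H2-DMa, H2-M2 and H2-M9. H2-D1 was at 1237 to 3033 CPM in the 7 UN libraries (median 1901) and at 1745 to 2489 CPM in U, so the groups overlapped. The median log2 fold change was 0.06 for the 19 heavy chain genes tested, 0.79 for the 11 class II genes and 0.08 over all genes.

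All 11 class II genes tested had a positive log2 fold change in UN against U, and 2 passed the test. Immune cell markers were higher in the same comparison. Of the 4 leukocyte markers Cd53 (2.26 ± 0.35), Coro1a (1.49 ± 0.56) and Laptm5 (1.31 ± 0.34) passed, and the 4 summed to 203 to 748 CPM in UN and 105 to 182 CPM in U, without overlap. Of the macrophage markers 5 of 8 were higher, of the B cell markers 3 of 5 and of the dendritic cell markers 2 of 8 (Itgax and Flt3), and their part in the class II values was not tested. H2-DMa, a chain of the peptide exchanger H2-DM, was at 17.6 to 114 CPM in UN (median 48.6) and at 14.6 to 34.0 CPM in U (median 24.1). The groups overlapped, and the log2 fold change was 1.09 ± 0.41 (FDR = 0.0804). The highest value was that of UN 2, whose macrophage markers (8 genes) summed to 3592 CPM, against 332 to 1723 CPM in the other UN libraries, and their part in it was not tested. H2-Oa was at 1.08 to 4.16 CPM in UN and at 0 to 0.842 CPM in U, without overlap, with a log2 fold change of 2.75 ± 0.94 (FDR = 0.0542). H2-M9 (2.15 ± 0.81) rested on UN 2, which had 21.0 CPM against 0.314 to 4.24 CPM in the other UN libraries. Without UN 2 its log2 fold change was 0.72, H2-DMa was lost and 2 members passed in all. H2-M2 was lost without UN 6 (1.95, FDR = 0.135), and in 10 of the 13 fits that left out 1 library, all but those without UN 1, UN 2 or UN 4. With mouse treated as a random effect 0 members passed, and 0 passed when UN 3, U 1R, U 1L, U 2L or U 3R was left out.

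On the cancer side, genes of both classes passed as higher than in untreated ureter, in a share close to that of all genes. Of 39 tested in UT against U, 8 were higher and 1 was lower, against 18.6% higher and 14.4% lower over all genes. The 8 were Tap1, H2-Q5, H2-Q7 and H2-M2 of the class I group and H2-Oa, H2-Ob, H2-DMb2 and Ciita of the class II group. The median log2 fold change was 0.43 for the 19 heavy chain genes, 0.76 for the 11 class II genes and 0.08 over all genes.

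Tap1 was the 1 gene of peptide supply called on the cancer side. In UT 1, UT 2, UT 3, UT 4, UT 5R, UT 5L, UT 6, UT 7, UT 8 and UT 10 it was at 49.8, 483, 54.1, 114, 132, 264, 91.6, 66.7, 61.9 and 47.5 CPM. In UN 1, UN 2, UN 3, UN 4, UN 6, UN 7 and UN 9 it was at 60.9, 43.0, 29.98, 41.9, 38.3, 75.9 and 83.4 CPM, and in U at 28.4 to 56.1 CPM. The highest values were in UT 2 and both ureters of mouse 5, and the low UT libraries lay within the UN range. The log2 fold change against U was 1.63 ± 0.46 (FDR = 0.00566), and it ranged from 1.16 to 1.77 when single libraries were left out, with the call kept each time.

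In UT against UN, Tap1 was the only one of the 39 genes to pass as higher, and 0 passed as lower, against 2.8% higher and 7.97% lower over all genes. There were 6 genes with an unadjusted p under 0.05 in edgeR. DESeq2 called Tap1 higher and H2-M9 lower. The log2 fold change of Tap1 was 1.32 ± 0.42 (FDR = 0.0555). UT was higher than UN in 4 of the 6 mice with both sides in the main tests (mice 2, 3, 4 and 6). With the mouse as a replicate block the log2 fold change was 1.002 ± 0.473 (FDR = 0.789), in a fit that called 0 of 15048 genes in either direction. Without UT 2 it fell to 0.85 and the call was lost, as it was without UN 2 or without UN 6. With the RNA integrity number as a covariate it was 0.96 ± 0.52 (FDR = 0.595) and also lost its call.

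Markers of the ureter wall and of kidney moved in the same comparisons. In UT against UN, 3 of 4 smooth muscle markers were lower (Myh11 at -2.39 ± 0.75, Des at -1.33 ± 0.51 and Acta2 at -1.27 ± 0.42 on the log2 scale), as were 1 of 4 adipocyte markers (Adipoq, -2.13 ± 0.83) and 1 of 8 urothelial markers (Upk1a). Against U, all 4 smooth muscle and all 4 adipocyte markers were lower in UT. The kidney tubule markers Slc34a1 (4.56 ± 1.46), Aqp2 (4.76 ± 1.72) and Umod (5.963 ± 2.103) were higher in UT than in UN, and the summed level of the kidney tubule list was 1633 CPM in UT 4, at most 9.98 CPM in the other UT libraries and 1.02 to 15.5 CPM in UN. The part of these tissues in the Tap1 levels was not tested.

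The neighbours of Tap1 did not pass. Psmb9, which faces it across the overlapping start, was at 22.03 to 261 CPM in UT (median 72.9) and at 36.8 to 145 CPM in UN (median 57.0), with a log2 fold change of 0.15 ± 0.39 (FDR = 0.817). Psmb8, next to Tap1 on the other side, was at 139 to 776 CPM in UT (median 313) and at 159 to 511 CPM in UN (median 226), and its log2 fold change was 0.44 ± 0.32 (FDR = 0.356). Against U, Psmb8 was at 0.77 ± 0.34 (FDR = 0.0683), past the FDR limit and below the fold limit. Tapbp was at 0.35 ± 0.17 (FDR = 0.167). Whether the change of Tap1 differed from theirs was not tested.

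The classical heavy chains overlapped between the cancer and noncancer sides. H2-K1 was at 88.6 to 543 CPM in UT (median 212) and at 124 to 313 CPM in UN (median 200). It was higher in UT in each of the 6 mice with both sides in the main tests. The difference was 0.27 ± 0.28 on the log2 scale (FDR = 0.522), and that of H2-D1 was 0.18 ± 0.29 (FDR = 0.691). H2-Q7, a gene of the Qa-2 family, had a larger value of 0.96 ± 0.42 (FDR = 0.131), and H2-Q5, annotated as a polymorphic pseudogene, of 0.95 ± 0.44 (FDR = 0.155). Against U, H2-Q5 rose by 1.46 ± 0.48 (FDR = 0.0154) and H2-Q7 by 1.02 ± 0.45 (FDR = 0.0636). H2-M3 was at 0.94 ± 0.28 against U (FDR = 0.00948), past the FDR limit and below the fold limit. H2-Q7 was at 241 CPM in UT 2 and 182 CPM in UT 5L, the 2 libraries highest in Tap1, and at 28.6 to 55.6 CPM in U. Its call against U was lost without UT 2, UT 5L, U 1R, U 1L, U 2R or U 2L, with log2 fold changes down to 0.67. H2-M2 stayed at low counts, with 0.256 to 6.07 CPM in UT and 0 to 0.327 CPM in U, and had a log2 fold change of 2.91 ± 0.83 (FDR = 0.00663).

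H2-Ke6, which lies in the H2 region and encodes a hydroxysteroid dehydrogenase (Hsd17b8) with no part in antigen presentation, was the 1 gene lower in UT than in U. It was at 18.6 to 109 CPM in UT (median 54.4) and at 91.2 to 168 CPM in U (median 113), and 9 of the 10 UT libraries lay below every U library. The log2 fold change was -1.15 ± 0.29 (FDR = 0.00282). With UT 9 added it was -0.995, just short of the fold limit. In UT against UN it was -0.75 ± 0.28 (FDR = 0.0851), under the fold limit.

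Within class II, the genes called on the cancer side were the restraining H2-O pair, an H2-DM chain and the transactivator. The A and E chains had positive values that did not pass, and whether they differed from the called genes was not tested. H2-DMa was at 0.86 ± 0.39 against U (FDR = 0.0728), past the FDR limit and below the fold limit. H2-Ob was at 0.14 to 50.4 CPM in UT (median 8.12) and at 2.34 to 4.74 CPM in U (median 2.86), with a log2 fold change of 2.103 ± 0.866 (FDR = 0.0499). H2-Oa was at 0 to 15.9 CPM in UT (median 2.70) and at 0 to 0.842 CPM in U, with 3.72 ± 0.94 (FDR = 0.0027). H2-DMb2 was at 5.87 to 105 CPM in UT (median 28.02) and at 7.15 to 20.7 CPM in U (median 12.9), with 1.51 ± 0.49 (FDR = 0.0151). UT libraries fell on both sides of the U range for H2-Ob and H2-DMb2, and H2-Ob was lost without UT 6 (log2 fold change 1.64).

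Ciita was at 1.86 to 41.2 CPM in UT (median 9.19) and at 4.95 to 9.60 CPM in U (median 5.74), and rose by 1.23 ± 0.54 on the log2 scale (FDR = 0.0658). The call was lost without UT 6, UT 7 or UT 8, the 3 highest libraries, and without U 1R, U 1L, U 2L or U 3L. The chains themselves did not pass, since H2-Aa had 0.63 ± 0.51, H2-Ab1 0.68 ± 0.46, H2-Eb1 0.60 ± 0.50 and Cd74 0.76 ± 0.50 (FDR between 0.219 and 0.334). With mouse treated as a random effect, H2-Oa, H2-DMb2, Tap1 and H2-M2 passed as higher and H2-Ke6 as lower, while H2-Ob, Ciita, H2-Q5 and H2-Q7 did not.

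B cells are known for high H2-O, and their markers were higher in the same comparison. All 5 B cell markers tested were higher in UT than in U (Cd79a by 4.22 ± 1.03 on the log2 scale), and 3 of the 5 were higher in UN than in U. The B cell markers (6 genes) summed to 588, 406 and 565 CPM in UT 6, UT 7 and UT 8, and to 5.36 to 192 CPM in the other 7 UT libraries. Among the 10 UT libraries of the test, the same 3 held the 3 highest values of Ciita (41.2, 34.6 and 33.7 CPM), of H2-DMb2 (105, 69.1 and 72.3 CPM) and of H2-Ob (50.4, 29.0 and 32.1 CPM). Among those 10 they also held the 3 highest values of the leukocyte markers (969, 807 and 994 CPM), the T cell markers (160, 52.2 and 74.5 CPM) and the dendritic cell markers (76.9, 109.9 and 67.7 CPM). UT 9, which was outside the test, had 345 CPM of B cell markers, 37.4 CPM of Ciita and 36.1 CPM of H2-Ob, with 807 CPM of leukocyte, 102 CPM of T cell and 85.9 CPM of dendritic cell markers, values among the 3 highest of the 11 UT libraries for Ciita, H2-Ob and the leukocyte, T cell and dendritic cell markers. Macrophage markers were also higher (5 of 8 in both UN and UT against U), as were 4 of the 5 T cell markers in UT, while of the 8 dendritic cell markers 2 were higher and 2 lower in UT. The part of these cell types in the class II levels was not tested.

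**Figure D2:**
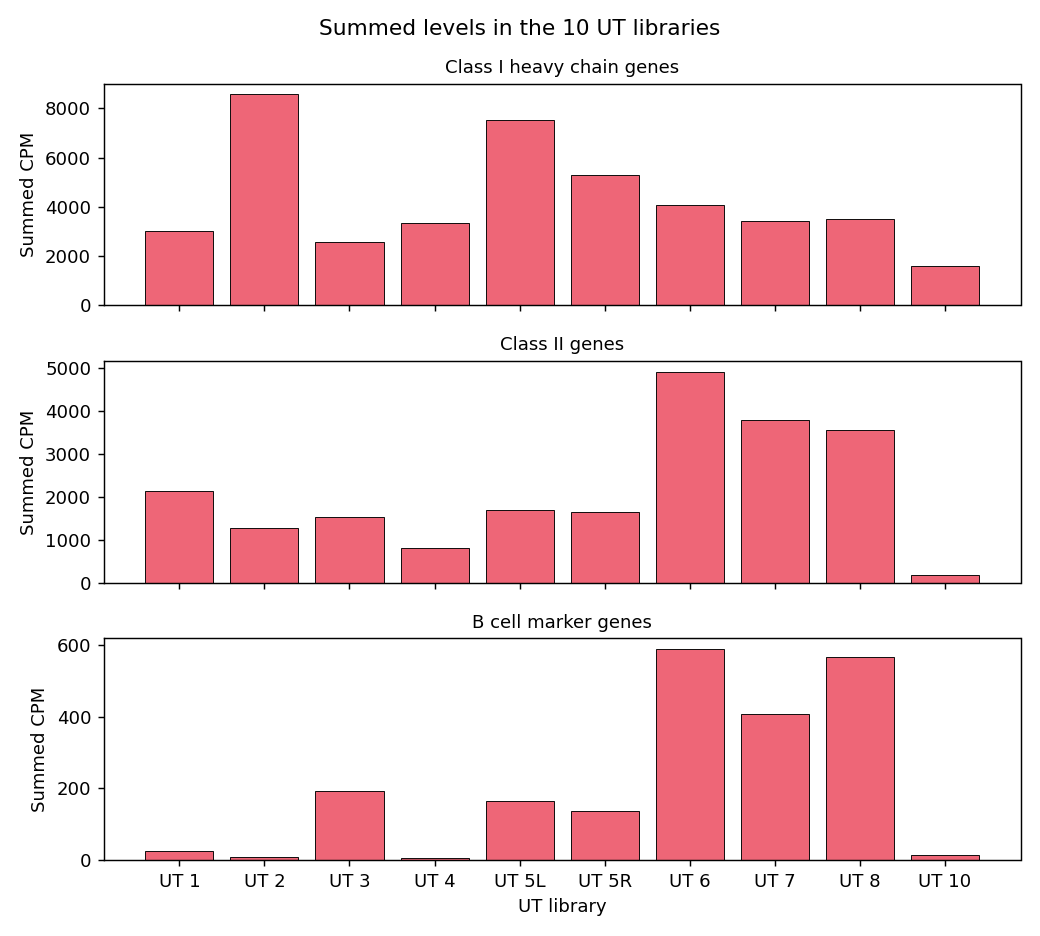
Summed CPM of the class I heavy chain genes (29 genes), the class II genes (12 genes) and the B cell markers (6 genes) in each of the 10 UT libraries, as bars from 0. UT 2 and UT 5L are highest in class I, and UT 6, UT 7 and UT 8 in class II and B cell markers.

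The 2 classes were highest in different cancer-side libraries. The 29 heavy chain genes summed to 1585 to 8581 CPM in UT (median 3476), 2225 to 5243 CPM in UN (median 3262) and 2941 to 4385 CPM in U (median 3292). The 12 class II genes summed to 177 to 4905 CPM in UT (median 1660), 731 to 4347 CPM in UN (median 1955) and 865 to 1698 CPM in U (median 1291). Both sums had a wider range in UT than in U. The log2 ratio of class I to class II was 1.48 ± 0.28 in U (SD, n = 6), 0.93 ± 0.71 in UN (n = 7) and 1.27 ± 1.26 in UT (n = 10).

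Single cancer-side libraries stood at opposite ends of that ratio. UT 2 had 8581 CPM of class I and 1271 CPM of class II, a log2 ratio of 2.76, with Nlrc5 at 66.9 CPM, its highest value in any library. UT 6 had 4905 CPM of class II and a log2 ratio of -0.27, and UT 7 and UT 8 were at -0.14 and -0.01. UT 10 was low in both, with 1585 CPM of class I, 177 CPM of class II and a log2 ratio of 3.16. In UT 10 H2-Aa was at 11.9 CPM, Cd74 at 97.3 CPM and T cell markers summed to 0.958 CPM, the lowest of the UT libraries in each case. Its urothelium markers summed to 5511 CPM, the highest of the UT libraries. Of the 6 mice with both sides in the main tests, 5 had more class I and 4 more class II on the cancer side.

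**Figure D3:**
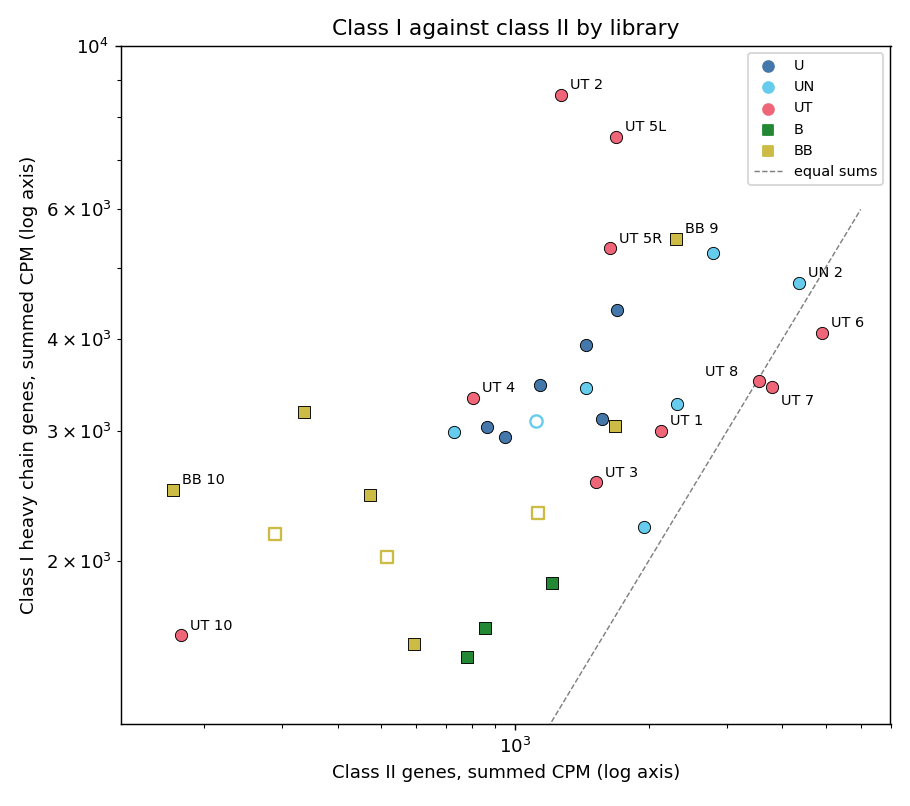
Summed CPM of class I heavy chain genes against summed CPM of class II genes, both on log axes, for each library of the main fits; squares are bladders, open symbols libraries under 9000000 counts, and the dashed line marks equal sums. U libraries lie between 865 and 1698 CPM of class II, and UT libraries between 177 and 4905 CPM.

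Among BBN-treated bladders the result depended on the 3 libraries with low totals. With all 9 BB libraries, 0 of 40 genes tested passed in edgeR in either direction, while 5 had an unadjusted p under 0.05 and DESeq2 called 6 higher and 1 lower. Over all 17984 genes edgeR called 7.08% higher and 5.47% lower. Without BB 1, BB 3 and BB 4, 9 of 38 genes were higher and 1 was lower, against 12.1% higher and 10.3% lower over the 15599 genes of that fit. The 9 were H2-K1, H2-D1, H2-L, H2-K2, H2-Q2, H2-Q5, H2-Q7, Tap1 and Psmb8, and none of the 11 class II genes tested was among them. Whether the heavy chain genes among the 9 share reads was not tested, so they may not be separate changes. H2-Bl, annotated as a polymorphic pseudogene, was the gene called lower.

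The 3 low-total libraries stood apart in Tap1 and H2-Q4, and overlapped the others in H2-D1 and B2m. H2-D1 was at 1074, 778 and 932 CPM in BB 1, BB 3 and BB 4, and at 902 to 3003 CPM in the other 6 BB libraries (median 1627). Tap1 was at 28.22, 24.02 and 24.87 CPM in the 3, below each of the other 6 (37.9 to 179 CPM). B2m was at 4170, 1935 and 3301 CPM in the 3 and at 397 to 2626 CPM in the other 6. H2-Q4 was at 363, 653 and 286 CPM in the 3 and at 28.8 to 81.0 CPM in the other 6. UN 6, the ureter library with a low total, likewise had H2-Q4 at 251 CPM against 41.7 to 87.9 CPM in the other UN libraries, and H2-L at 54.3 CPM against 360 to 932 CPM. Whether depth, RNA integrity or something else set these libraries apart was not tested.

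Among the 6 deeper BB libraries, the classical chains were higher than in B by about the fold limit. H2-D1 had a log2 fold change of 1.01 ± 0.31 (FDR = 0.0309), H2-K1 of 1.02 ± 0.37 (FDR = 0.0564) and H2-L of 1.05 ± 0.31 (FDR = 0.0245). Psmb8 (1.53 ± 0.55, FDR = 0.0563) and H2-Q5 (1.53 ± 0.51, FDR = 0.0418) had the largest values. BB 7 was the exception, with H2-D1 at 902 CPM and Psmb8 at 65.8 CPM, inside the range of the untreated bladders. The count of 9 moved from 1 (without B 1, or without B 2) to 13 (without BB 7) when single libraries were left out, and it was 2 without BB 9, 4 without BB 2 and 5 without BB 5.

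Markers of several cell types moved in the same comparison. The urothelial markers (8 genes) summed to 2828 to 5484 CPM in the 6 deeper BB libraries and to 14300 to 14730 CPM in B, and the smooth muscle markers (4 genes) to 1357 to 4200 CPM and to 5499 to 6539 CPM, neither with overlap. In that fit the uroplakin genes Upk1a, Upk1b, Upk2 and Upk3a were lower, Krt5 and Epcam of the same list were higher, and 3 of 4 smooth muscle markers were lower. With all 9 BB libraries the 4 uroplakin genes were lower and 0 of 4 smooth muscle markers passed in edgeR, while 4 had an unadjusted p under 0.05 and DESeq2 called 3 lower. The leukocyte markers (4 genes) overlapped, at 98.3 to 376 CPM in the deeper BB libraries and 83.85 to 134 CPM in B, as did the B cell markers (6 genes), at 1.64 to 95.6 CPM and 3.82 to 24.2 CPM. Without the 3 low-total libraries 1 of 4 leukocyte markers, 1 of 5 B cell markers and 2 of 8 macrophage markers passed as higher. The part of these cell types in the class I levels was not tested.

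No class II gene passed the test in the bladder, in edgeR or in DESeq2. Cd74 was at 91.0 to 1154 CPM in the 6 deeper BB libraries (median 298) and at 458, 477 and 705 CPM in B. The median log2 fold change of the 11 class II genes in that fit was 0.13, and that of the 18 heavy chain genes was 0.94, beside 0.04 over all genes. The log2 ratio of class I to class II was 0.92, 0.92 and 0.62 in the 3 B libraries. It was 0.86 to 3.87 in the 9 BB libraries (2.103 ± 1.07, SD), and 8 of the 9 lay above all B libraries, the 1 exception being BB 2. With H2-K1 and H2-D1 over class II chains and loading genes alone, 6 of the 9 lay above all B libraries, BB 1, BB 2 and BB 4 being at 0.41, 1.41 and 1.39 against 1.14 to 1.47 in B. BB 10 had the highest ratio, with 16.7 CPM of H2-Ea-ps and 12.0 CPM of H2-Aa, and its B cell markers summed to 1.64 CPM.

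**Figure D4:**
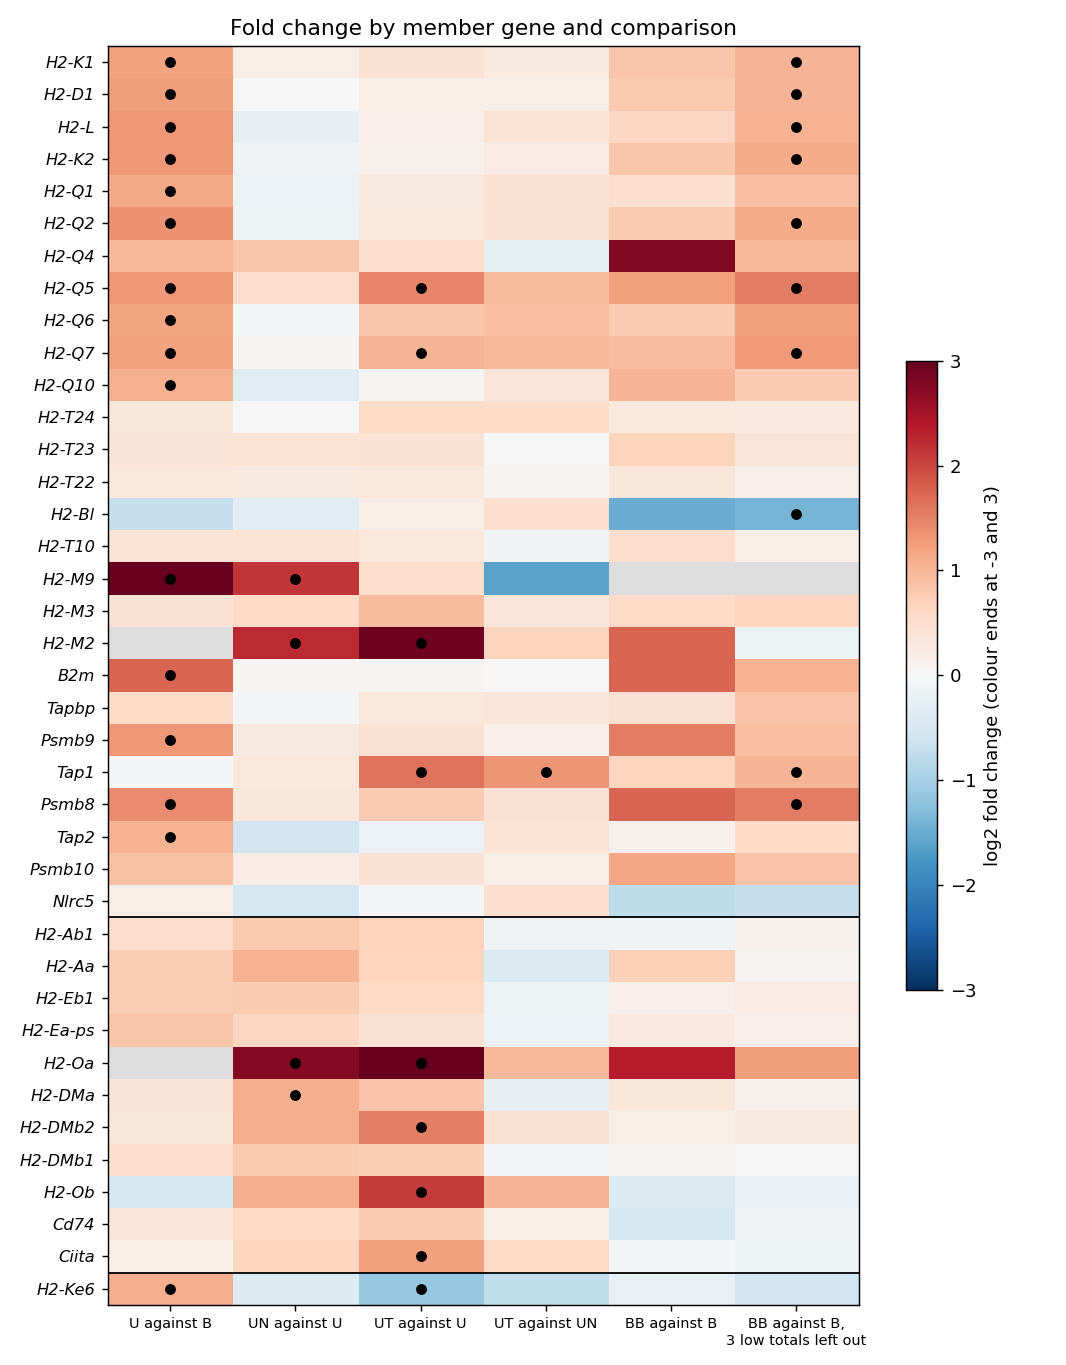
Log2 fold change of each gene tested in at least 4 of the 6 fits shown (rows; class I pathway, class II pathway and H2-Ke6 from top to bottom) in each comparison (columns), with a black dot for each call; grey cells were not tested. Dots lie in 11 heavy chain rows for U against B, in 8 for BB against B without the 3 low-total libraries (7 higher, and H2-Bl lower), and in 4 class II rows for UT against U.

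The response to BBN was compared between tissues as the difference of UN against U and BB against B. Of 42 genes tested, 0 differed in edgeR and 0 in DESeq2, while 2 had an unadjusted p under 0.05 in edgeR and 7 in DESeq2. Over all 18757 genes, edgeR called 1.65% higher and 0.682% lower. The 2 were B2m (-1.71 ± 0.71, FDR = 0.305) and Psmb8 (-1.40 ± 0.64, FDR = 0.372), both with a smaller response in the ureter. The mean of B2m in BB was 1806 CPM, and 1141 CPM without the low-total libraries, against 572 CPM in B. For Psmb8 these means were 269, 235 and 84.1 CPM. The median was -0.70 for 21 heavy chain genes, 0.73 for 12 class II genes and -0.12 over all genes. UN and BB libraries came partly from the same mice, and with mouse treated as a random effect 0 of the 42 passed as well (4 with an unadjusted p under 0.05). No gene passed without the low-total libraries either. A difference in class I response between ureter and bladder was thus not detectable in these libraries.

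Lists of genes outside the H2 family were also followed. Of the 11 class I loading genes, 0 passed in UN or UT against U in edgeR or DESeq2 (1 and 2 had an unadjusted p under 0.05 in each tool). Of 9 genes of class II peptide processing tested, 5 were higher in UN than in U and 6 in UT than in U, with 0 lower in both, against 11.9% and 18.6% of all genes higher. They included cathepsin S (Ctss, which cuts the invariant chain), at 2.82 ± 0.51 in UN and 3.09 ± 0.50 in UT on the log2 scale, the thiol reductase Ifi30 at 1.88 ± 0.35 and 1.93 ± 0.33, and legumain (Lgmn) at 1.79 ± 0.41 and 2.12 ± 0.40. March1, a ubiquitin ligase that lowers class II at the cell surface, was also among them, at 1.91 ± 0.45 and 2.09 ± 0.43. Ctss, Lgmn and Ifi30 are also abundant in macrophages, of whose 8 markers 5 were higher in the same comparisons. Of 7 genes of costimulation and coinhibition, 3 were higher in UN and 4 in UT against U, against the same shares of all genes. The largest changes were those of the coinhibitory ligand Pdcd1lg2 (PD-L2), 3.38 ± 1.09 and 4.01 ± 1.06, followed by Cd40, 2.19 ± 0.50 and 2.90 ± 0.50, and the other ligand of that kind, Cd274 (PD-L1), did not pass. Of 15 genes of interferon signaling tested, 2 were higher in UN than in U (Socs3 and Ifngr2, against 11.9% of all genes). In UT against U 6 were higher (against 18.6%), led by Socs3 (3.72 ± 0.44). In UT against UN 0 of the 15 passed, while 8 had an unadjusted p under 0.05 in edgeR and 7 in DESeq2. Those past the FDR limit there in edgeR, and short of the fold limit, included Jak2 (0.80, FDR = 0.0356), Irf9 (0.61, FDR = 0.0512), Jak1 (0.45, FDR = 0.0839), Stat2 (0.95, FDR = 0.0905) and Ifngr2 (0.60, FDR = 0.0988).

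Other lists changed little or in the other direction. None of the 14 constitutive proteasome genes and none of the 8 genes of the RFX, NF-Y and CREB factors that bind MHC promoters passed in edgeR or DESeq2 in UT against U, UN against U or UT against UN (at an unadjusted p under 0.05, 0 of the 14 in either tool, and of the 8 at most 2 in edgeR and 3 in DESeq2). Of 7 class I-like molecules tested, 3 were lower in UT than in UN (against 7.97% of all genes) and the same 3 were lower in UT than in U (against 14.4%), where Ulbp1 was higher. These 3 were Cd1d1 and Cd1d2, which present lipids, and Fcgrt, the neonatal Fc receptor. Against U the log2 fold change was -3.41 ± 0.66 for Cd1d1, and in untreated mice Cd1d1 was higher in ureter than in bladder by 6.07 ± 0.35. All 4 adipocyte markers were likewise lower in UT than in U and higher in U than in B, and their part in the Cd1 values was not tested.

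Per kilobase of exon, among the genes with a known exon length, B2m had the highest level in U (2111 CPM per kilobase), before H2-D1 (790), Cd74 (400) and H2-Ea-ps (177), and H2-K1 was at 65.1. H2-L (622.5 CPM in U), H2-Q8, H2-Q9 and H2-T9 had no exon length in the annotation used here and were not ranked. The level of H2-Ea-ps is read from an allele that the reference carries as a pseudogene. Of the nonzero values of the 53 symbols, 53.6% were not whole numbers, against 21.1% over all genes, and every value of H2-K1 and H2-D1 was fractional. Genes with no near-identical copy also had fractional values, 86.5% of those of Tapbp and 64.9% of those of Cd74, and what gave rise to them was not tested. How reads of the d haplotype fell on the b haplotype reference was not tested, so levels of single H2-K, H2-D, H2-L, Q and T genes are uncertain. Comparisons of 1 gene between libraries share the same reference. They may still not be separate between related genes, such as H2-L and H2-D1, if these share reads, which was not tested. The 11 genes left out of the ureter fits by the filter on low counts (6 H2-M10 genes, H2-M1, H2-M5, H2-M11, H2-T3 and H2-Eb2) had at most 20 counts in any library.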

How the data were processed

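Whole-tissue RNA was sequenced in 37 libraries prepared with kits not stated to keep strand. The authors mapped reads to GRCm38/mm10, and the submitters' processing notes name TopHat2 2.1.1 and Cuffdiff 2.2.1. The deposited table holds estimated counts for 24421 genes, not normalized and in part fractional, which were rounded to whole numbers. Totals of 3557697 to 18793560 counts set the precision.

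Main tests were quasi-likelihood F tests in edgeR 4.0.16 (R 4.3.3) with TMM scaling and filterByExpr by group, on the whole table, with Benjamini-Hochberg adjustment over all genes tested; a call needed FDR below 0.1 and a change of 2-fold or more. UT, UN and U were fitted together, BB with B, U with B, and all but UT in the test of the tissue difference. UT 9 was left out because the study's own clustering omits it, and BB 6 because its library name carries a T. Levels are CPM with TMM scaling over all libraries. DESeq2 1.42.0 and limma 3.58.1 (mouse as a random effect) gave alternatives. The first contrast of each main fit was also run on simulated counts, with outcomes not given here.

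In the main tests UT and UN share animals in 6 mice, and U and B in 3, so their numbers pair the samples. Deviations of UT and UN libraries had a median correlation of -0.013 within mice and 0.00139 between mice. UN and BB also share 6 mice in the test of the tissue difference. For U, both ureters of a mouse counted as separate libraries. P-values measure the spread between these libraries.

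The members and lists were chosen with earlier results of these data known. Any member that passed the low-count filter could be named, with the called genes of the 3 largest fold changes in each other list.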

Additional observations from a re-analysis of the deposited data

Results flagged for a closer look

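Among 104 sets of libraries, 5 held a library whose gap to its neighbours was larger than Dixon's limit. Each set was 1 gene, class sum or class ratio in 1 group of 4 to 10 libraries. The scale was log2 of CPM + 1, and for the ratio its log2 value. Chance gives about 1 such set in 20 sets. Of the 5, 3 were class II genes in UT 10, where H2-Ab1 was at 19.33 CPM (99.7 to 536 CPM in the other UT libraries), H2-Eb1 at 9.397 CPM (64.5 to 396 CPM) and H2-DMa at 8.32 CPM (27.0 to 78.0 CPM). The others were in UN 6, which has a low total, where H2-M3 was at 8.473 CPM (22.1 to 43.0 CPM in the other UN libraries) and H2-Q4 at 251.0 CPM (41.7 to 87.9 CPM).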

How the results depend on the processing

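Of 348 values of single genes under other settings, not counting fits that leave out 1 library, 300 kept their direction and their side of the limits, 23 lost and 25 gained a call, and 0 reversed. Counts of called genes moved as follows. For UT against UN, 0 were higher without the libraries under 9000000 counts, with the RNA integrity number as a covariate, with UT and UN fitted alone, and with the mouse as a replicate block. Over all genes the last 3 of these fits called 0, 1 and 0 higher and 0 lower, against 438 and 1245 in the main test. For that comparison 1 was lower with no filter on low counts and 1 with DESeq2, and single libraries left out gave 0 to 3 higher and 0 to 1 lower. For UN against U, 2 were higher with no filter, 2 with the integrity covariate and 0 with mouse as a random term, and 0 to 4 with single libraries left out. For UT against U, 4 were higher with mouse as a random term, 2 lower with no filter and 0 lower with all 11 UT libraries. For BB against B, 9 were higher and 1 lower without the low totals, 1 higher with RLE normalization, 6 higher and 1 lower with DESeq2, 1 higher with 10 bladders and 4 higher with the integrity covariate, and 0 to 2 higher with single libraries left out. Without the low totals, in alternatives chosen after seeing the data, single libraries left out gave 1 to 13 higher and 0 to 1 lower, and DESeq2 gave 11 higher. For U against B, 1 was lower with no filter and 0 to 1 with single libraries left out, and the replicate block gave 15 higher against 16. The mean log2 ratio of class I to class II, from H2-K1 and H2-D1 over class II chains and loading genes, was 1.945 in U and 1.326 in B, and the class I sum in B was 1881 CPM by column totals. Why these counts moved was not tested. The replicate block changed no other count.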
